A study of Mus musculus with 9 samples.

Results

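Transcripts of 6 genes were followed in mouse bone marrow-derived dendritic cells (BMDC) exposed to lysophosphatidic acid (LPA): the Trem receptors Trem1, Trem2, Trem3 and Treml4, the adaptor Tyrobp (DAP12) and Klrk1 (NKG2D). The genes were chosen by name, with earlier results of these data known. The row with most counts was to be used for each. Each symbol matched exactly 1 row, so no count decided which row was used. The 6 rows were taken from 38887, and all 6 were among the 14363 rows that passed the filter on low counts. There were 3 groups of 3 libraries: cells treated with LPA for 2 h, cells treated with LPA for 6 h, and untreated cells. BMDC are myeloid cells grown in culture from bone marrow, and LPA is a lipid messenger sensed by G protein-coupled receptors. The series title sets the work in ovarian cancer and type I interferon responses. The labels used here name no mouse strain, sex, age, culture cytokine, LPA dose or vehicle. They do not say at which time untreated cells were collected, so time in culture and LPA cannot be told apart, and they do not say whether replicates came from separate mice or cultures. The p-values therefore measure only the spread between these libraries, which may be technical.

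Trem receptors are cell surface proteins of myeloid cells with a single immunoglobulin-like domain. Most have no signalling tail and instead hold Tyrobp, a small membrane adaptor whose tail carries an immunoreceptor tyrosine-based activation motif (ITAM). Phosphorylation of the ITAM by Src family kinases recruits the kinase Syk. Trem1 is known for amplifying inflammatory responses of neutrophils and monocytes, and Trem2 for binding lipids and lipoproteins on macrophages, microglia and dendritic cells. Klrk1 encodes NKG2D, an activating receptor best known on natural killer (NK) and T cells, which in mice can pair with Tyrobp or with the related adaptor Hcst (DAP10).

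The 6 genes differed in direction and in time after LPA. Trem1 was 19.1-fold higher at 2 h and 6.75-fold higher at 6 h than in untreated cells. Trem3 was about 3-fold higher at both times, from a level under 1 CPM, the usual scale of counts relative to a library's scaled total. Klrk1 was 1.78-fold higher at 2 h and lower than in untreated cells at 6 h. Treml4 was 2.45-fold lower at 6 h, with 2.80 CPM against 6.95 CPM in untreated cells, and did not pass the test at 2 h. Trem2 and Tyrobp, the abundant pair, differed by at most 1.22-fold.

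The cell type label was checked against marker genes. The dendritic cell gene Itgax averaged 1318 CPM at 2 h, 1072 CPM at 6 h and 1361 CPM untreated, and Zbtb46 averaged 19.7 CPM at 2 h, 17.96 CPM at 6 h and 18.03 CPM untreated. Of 17 dendritic cell markers only Cd209a had a mean under 1 CPM over the 9 libraries. Most macrophage markers were also detected, with Csf1r, the highest, at 2523 CPM at 2 h, 2629 CPM at 6 h and 2251 CPM untreated. Of the 13 listed, Timd4 and Vsig4 had a mean under 1 CPM over the 9 libraries, and Vsig4 had 0 counts in every library. Marco averaged 4.51 CPM at 2 h, 2.75 CPM at 6 h and 3.86 CPM untreated. All 12 NK cell markers were under 1 CPM, and Ncr1 and Tbx21 had 0 counts in every library. The neutrophil gene Ly6g averaged 0.00987 CPM at 2 h, 0.0121 CPM at 6 h and 0 CPM untreated. In bulk libraries, fewer cells of a type and less RNA per cell cannot be told apart. Replicate 2 of the 2 h group, with 84596899 counts the deepest library, lay apart from the other 2 h libraries, and values without it are given where they matter. Totals of the other libraries ran from 29628817 to 66798287 counts.

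Of the members, 4 lie in a cluster on mouse chromosome 17, which holds 7 protein-coding genes over 134.4 kb in the GENCODE M21 annotation of GRCm38 (mm10), all on the plus strand. Trem1 spans 48232768 to 48246924, and Trem3, 48247777 to 48258841, begins 852 bases after its end. Treml4 follows at 48264295 to 48275360, then Treml2, B430306N03Rik, Trem2 at 48346401 to 48354147, and Treml1. Tyrobp lies on chromosome 7 at 30413760 to 30417585 (plus strand), and Hcst begins 126 bases beyond it on the opposite strand. Klrk1 lies on chromosome 6 at 129610323 to 129623864 (minus strand). The libraries do not keep strand, and reads that run on from Trem1 into Trem3, or between Tyrobp and Hcst, cannot be told apart from the neighbour's own transcripts. A processed pseudogene inside Trem1 on the opposite strand, AC241601.2, matched no row of the table.

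The 250 bases before the start of transcription are shown for the 4 members that have an entry among the RefSeq promoters of GRCm38.p6. These windows set Trem1, the gene that rose most, beside Treml4 and Trem2 of the same cluster and beside Klrk1 on chromosome 6. Capitals mark matches, on either strand, to the letters TGANTCA (AP-1), TGACGTCA (cAMP response element, CRE), TGACG (the core of a CRE), GAGGAA (ETS, PU.1), and ACGTG or GCGTG (hypoxia response), and would mark the NF-kB motif and the interferon-stimulated response element. TGACG also lies within TGACGTCA. The RefSeq start of Trem1 lies 29 bases before the GENCODE start given above.
Trem1, chr17:48232489-48232738, plus strand: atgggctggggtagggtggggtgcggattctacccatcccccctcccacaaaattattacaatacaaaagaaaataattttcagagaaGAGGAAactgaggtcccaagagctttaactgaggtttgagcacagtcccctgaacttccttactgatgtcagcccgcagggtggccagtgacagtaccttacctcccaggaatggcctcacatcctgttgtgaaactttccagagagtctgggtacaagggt
Treml4, chr17:48264045-48264294, plus strand: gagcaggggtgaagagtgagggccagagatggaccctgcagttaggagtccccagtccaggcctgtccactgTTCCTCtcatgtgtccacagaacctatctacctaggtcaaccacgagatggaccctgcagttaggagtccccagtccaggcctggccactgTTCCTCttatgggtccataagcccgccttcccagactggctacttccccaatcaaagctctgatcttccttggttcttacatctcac
Trem2, chr17:48346151-48346400, plus strand: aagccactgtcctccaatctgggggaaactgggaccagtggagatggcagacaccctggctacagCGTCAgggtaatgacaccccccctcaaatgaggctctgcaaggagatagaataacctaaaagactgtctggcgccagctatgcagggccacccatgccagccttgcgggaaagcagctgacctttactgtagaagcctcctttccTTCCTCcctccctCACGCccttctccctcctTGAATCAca
Klrk1, chr6:129623865-129624114, minus strand: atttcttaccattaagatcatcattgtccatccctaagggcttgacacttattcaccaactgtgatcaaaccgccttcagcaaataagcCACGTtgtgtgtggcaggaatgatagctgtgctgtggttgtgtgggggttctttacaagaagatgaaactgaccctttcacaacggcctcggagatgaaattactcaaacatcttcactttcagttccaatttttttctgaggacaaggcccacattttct

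Trem1 held 1 match, GAGGAA at -162 to -157, and none of the other letters. Treml4 held GAGGAA 2 times on the minus strand, at -178 and -87. Each match lies shortly after a copy of a duplicated stretch of 40 bases, which starts at -225 and again at -134. Such a repeat of 40 bases was found in 90 of 32851 promoter windows (0.27%). Trem2 held GAGGAA on the minus strand at -40, the core CRE letters TGACG on the minus strand at -185, GCGTG on the minus strand at -27, and TGAATCA, a match to the AP-1 letters, at -9. Klrk1, whose window is shown on the minus strand of the chromosome, held ACGTG on the strand opposite to the one shown, at -161, and none of the others. In all 32851 windows GAGGAA was found in 23.3%, ACGTG or GCGTG in 38.6%, TGACG in 17.8% and TGANTCA in 6.7%. The NF-kB motif was found in 45.8%, the interferon-stimulated response element in 3.0% and TGACGTCA in 1.5%, and none of the 4 windows held any of these. A match to such short letters describes the window and says nothing of a bound factor.

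Levels were first compared between genes, which needs values per length: CPM divided by the mean length in kb of the transcripts in each row. Tyrobp was the most abundant, with 792 ± 42.8 CPM per kb at 2 h, 874 ± 29.3 at 6 h and 714 ± 21.9 untreated (SD, n = 3 each). Trem2 came next with 173 ± 11.4 CPM per kb at 2 h, 196 ± 5.45 at 6 h and 169.5 ± 3.62 untreated. The order below these changed with LPA. In untreated cells it was Treml4 with 7.48 ± 1.03 CPM per kb, Klrk1 with 2.74 ± 0.231, Trem1 with 1.66 ± 0.0979 and Trem3 with 0.280 ± 0.0420. At 2 h Trem1 stood below only Tyrobp and Trem2, with 31.7 ± 8.01 CPM per kb, above Treml4 with 8.09 ± 1.26, Klrk1 with 4.92 ± 0.950 and Trem3 with 0.941 ± 0.0255. At 6 h the order was the same as at 2 h, with Trem1 at 11.2 ± 0.905 CPM per kb and Trem3 at 0.841 ± 0.239. With this length, no library of a gene overlapped those of its neighbour in the order within each group. With the longest transcript of each row as the length, the untreated level of Trem2 was 66.0 CPM per kb, and Trem1 (1.41) stood above Klrk1 (1.23). At 6 h Trem3 then had 0.661, 0.749 and 1.11 CPM per kb and overlapped Klrk1 with 0.627, 0.653 and 0.687. The untreated order of Trem1 and Klrk1 and the 6 h order of Klrk1 and Trem3 thus depend on the length used.

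**Figure D1:**
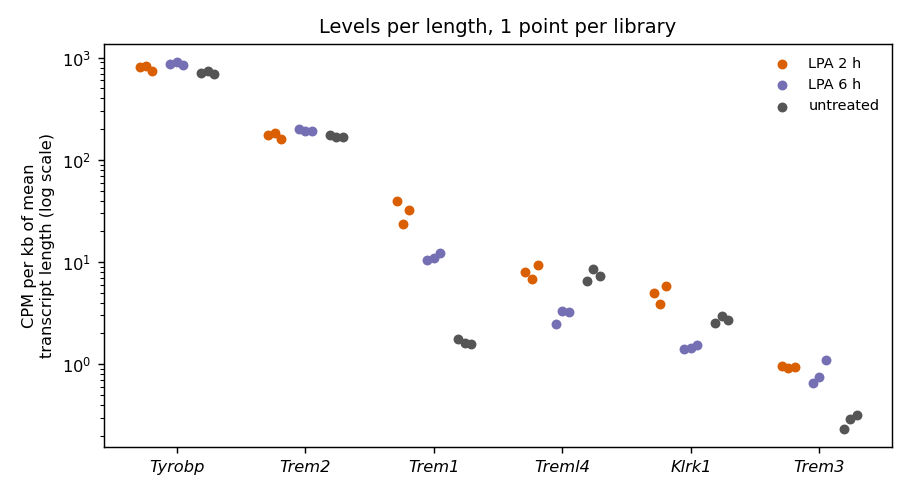
Level per length of the 6 genes in each of the 9 libraries (1 point per library; log axis, CPM per kb of mean transcript length; LPA 2 h, LPA 6 h and untreated from left to right for each gene). Tyrobp and Trem2 lie far above the rest in every group, and Trem1 lies above Treml4 in both LPA groups and below it in untreated cells.

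On the same scale, Tyrobp transcripts exceeded the sum of the 4 Trem receptors by 3.70 ± 0.145 times at 2 h, 4.13 ± 0.160 times at 6 h and 3.99 ± 0.132 times in untreated cells (SD, n = 3 each). Trem1 made up 14.8 ± 3.47% of that sum at 2 h, 5.29 ± 0.506% at 6 h and 0.927 ± 0.0396% untreated. These values depend on the length used. With the longest transcript of each row, an alternative chosen after seeing the data, Tyrobp exceeded the sum 7.98 ± 0.601 times at 2 h, 9.89 ± 0.400 times at 6 h and 9.96 ± 0.311 times untreated. The share of Trem1 was then 26.8 ± 5.44% at 2 h, 10.7 ± 0.936% at 6 h and 1.96 ± 0.0869% untreated. With either length, every 2 h library had a higher share of Trem1 than any 6 h library, and every 6 h library a higher share than any untreated one.

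In the comparison of 2 h with untreated cells, 4 of the 6 members rose, none fell and 2 did not pass the test, in edgeR's quasi-likelihood test, adjusted over all genes by the Benjamini-Hochberg method. Of all genes tested, 38.5% were called in either direction and 19.3% were higher. At 6 h against untreated, 4 members rose and 2 fell, where 52.0% of all genes were called, 26.4% higher and 25.7% lower. At 6 h against 2 h, 2 were higher, 3 lower and 1 did not pass, where 48.7% of all genes were called. The ranges of the groups were separate for 4 members at 2 h against untreated, 6 at 6 h against untreated and 5 at 6 h against 2 h, beside 48.2%, 63.0% and 58.9% of all genes. The median log2 fold change of all genes was -0.001, 0.007 and -0.006 in these comparisons. The members were picked with earlier results of these data known, so the counts describe them and support nothing further.

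**Figure D2:**
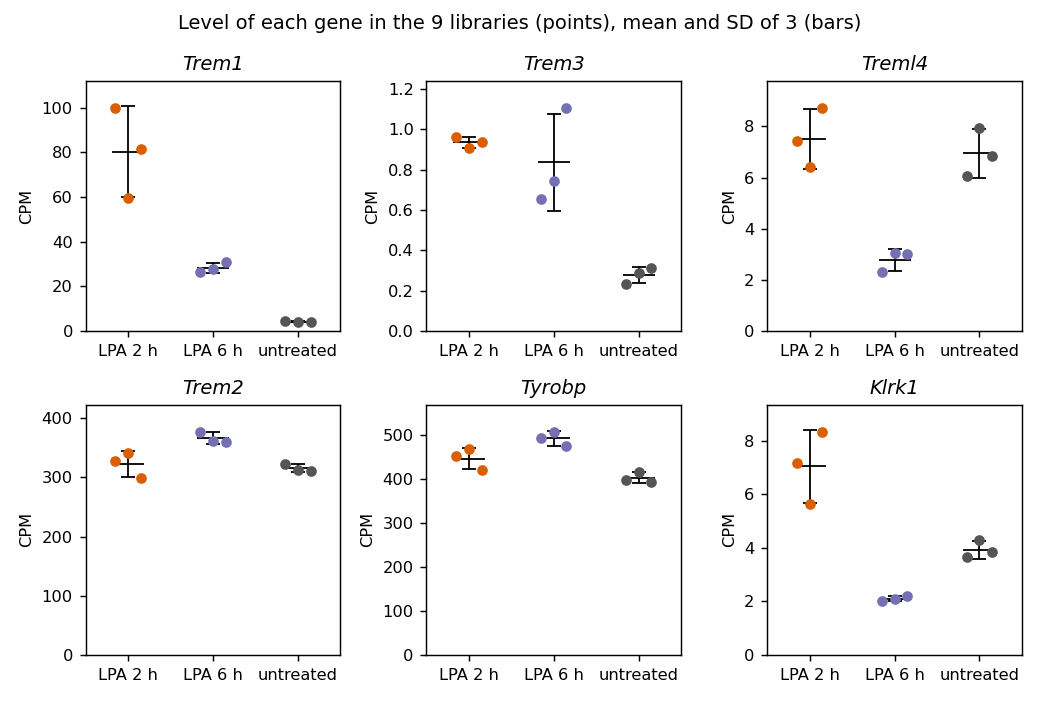
Level in CPM of each of the 6 genes (1 panel per gene, axis from 0) in the LPA 2 h, LPA 6 h and untreated libraries; points are libraries, bars the mean and SD of 3. Trem1 is high at 2 h and intermediate at 6 h, while Treml4 and Klrk1 are lowest at 6 h.

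Trem1, the amplifying receptor, had 99.9, 59.4 and 81.5 CPM at 2 h, and 26.3, 27.9 and 30.8 CPM at 6 h, against 4.49, 4.10 and 4.04 CPM in untreated cells. Every LPA library lay above every untreated library, and every 2 h library above every 6 h library. The lowest 2 h value belonged to replicate 2, the library that stood apart. The log2 fold change was 4.25 ± 0.21 (SE) at 2 h against untreated (adjusted p = 2.3e-06) and 2.76 ± 0.20 at 6 h against untreated (adjusted p = 1.4e-05). Among the 14363 genes tested these were the 15th largest and the 60th largest rises. The level at 6 h was lower than at 2 h by a log2 fold change of -1.50 ± 0.17 (adjusted p = 0.00029). Without replicate 2 of the 2 h group the rise at 2 h was 4.43 and the difference between the times -1.68, with both calls kept.

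Markers of neutrophils, which are known to express Trem1, were set beside this rise. Their summed level over 13 markers was 1961 to 2071 CPM at 2 h, 1796 to 1907 CPM at 6 h and 2049 to 2226 CPM untreated, most of it the collagenase gene Mmp8. Without Mmp8 the sum was 15.2 to 20.4 CPM at 2 h, 9.83 to 11.9 CPM at 6 h and 17.0 to 22.6 CPM untreated. The 2 h sums overlapped the untreated ones and the 6 h sums lay below them, and 7 of the 13 markers, Ly6g, Elane and Mpo among them, averaged under 1 CPM. The part of neutrophils in the Trem1 result was not tested.

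Trem3, a mouse Trem receptor known from macrophages that also uses Tyrobp, was barely detected. It had 54, 77 and 43 counts at 2 h (0.960, 0.910 and 0.935 CPM) and 20, 41 and 71 counts at 6 h (0.657, 0.744 and 1.11 CPM), against 11, 19 and 15 counts (0.233, 0.287 and 0.315 CPM) in untreated cells. All LPA libraries lay above all untreated ones, and the LPA groups overlapped. The log2 fold change was 1.73 ± 0.24 at 2 h (adjusted p = 0.000143) and 1.61 ± 0.25 at 6 h (adjusted p = 0.000182), and -0.12 ± 0.21 at 6 h against 2 h (adjusted p = 0.718), which did not pass. Trem3 counts amounted to 1.21 ± 0.290% of Trem1 counts at 2 h, 2.92 ± 0.586% at 6 h and 6.67 ± 1.34% untreated (SD, n = 3 each). Their ratio was thus not constant, and the part that reads running on from Trem1 have in the Trem3 counts was not tested.

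Treml4, a receptor known from mouse dendritic cells and macrophages that also signals through Tyrobp, followed another course. It had 7.43, 6.39 and 8.72 CPM at 2 h and 2.30, 3.07 and 3.02 CPM at 6 h, against 6.04, 7.95 and 6.85 CPM in untreated cells. The 2 h and untreated libraries overlapped, and all 6 h libraries lay below both. Its 2 h difference, 0.10 ± 0.14 on the log2 scale, missed the threshold (adjusted p = 0.601). At 6 h Treml4 fell by a log2 fold change of -1.29 ± 0.15 against untreated (adjusted p = 2.07e-05) and of -1.40 ± 0.15 against 2 h (adjusted p = 3.94e-05).

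Monocyte markers were set beside this fall. Their summed level over 9 markers was 126.6 to 156.7 CPM at 6 h and 185.6 to 253.2 CPM in untreated cells. At 6 h 5 of the 9 fell, where 25.7% of all genes were lower. Ccr2 (-1.52 ± 0.27) and Cx3cr1 (-1.33 ± 0.20) had already fallen at 2 h, when Treml4 did not pass. Nr4a1 rose at both times (3.29 ± 0.24 and 1.51 ± 0.26). In the 2 h libraries the sum was 161.2 to 228.8 CPM. Dendritic cell markers summed to 7436 to 8182 CPM at 6 h and 8056 to 9287 CPM in untreated cells. The part of either cell population in the Treml4 result was not tested.

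Trem2, the lipid-binding receptor, had 327, 341.5 and 299.6 CPM at 2 h and 377.6, 360.8 and 359.3 CPM at 6 h, against 323.5, 313.4 and 310.7 CPM in untreated cells. The 2 h libraries spanned the untreated range, and the 6 h libraries lay above both groups. Its 2 h difference of 0.03 ± 0.05 on the log2 scale missed the threshold (adjusted p = 0.669), while Trem2 rose by 0.21 ± 0.05 at 6 h (adjusted p = 0.00411). It was also higher at 6 h than at 2 h by 0.18 ± 0.05 (adjusted p = 0.0114), a call lost without replicate 1 of the 6 h group (0.15, adjusted p = 0.0556).

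Tyrobp, the shared adaptor, had 452.6, 467.6 and 420.3 CPM at 2 h and 494.6, 508.2 and 475.3 CPM at 6 h, against 398.3, 416.8 and 393.4 CPM in untreated cells. The groups did not overlap, although the highest untreated library and the lowest 2 h library were close. Tyrobp rose by a log2 fold change of 0.15 ± 0.05 at 2 h (adjusted p = 0.0323) and 0.29 ± 0.05 at 6 h (adjusted p = 0.000398), and was 0.14 ± 0.05 higher at 6 h than at 2 h (adjusted p = 0.0339). The 2 h call was lost with total-count scaling and without any of 4 single libraries, with adjusted p up to 0.121. The call between the times was lost with only the 6 libraries compared and without any of 4 single libraries, with adjusted p up to 0.122. The 6 h rise against untreated passed under all 13 alternatives.

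Klrk1 had 7.18, 5.64 and 8.35 CPM at 2 h and 2.00, 2.09 and 2.20 CPM at 6 h, against 3.65, 4.29 and 3.85 CPM in untreated cells. The 3 groups did not overlap: 2 h libraries were the highest and 6 h libraries the lowest. Klrk1 rose by a log2 fold change of 0.83 ± 0.13 at 2 h (adjusted p = 0.00038), fell by -0.90 ± 0.15 at 6 h (adjusted p = 0.000263), and was lower at 6 h than at 2 h by -1.73 ± 0.14 (adjusted p = 1.12e-05). Without replicate 2 of the 2 h group the rise was 0.98. NK cell markers summed to 0.591 to 1.17 CPM at 2 h, 0.581 to 0.789 CPM at 6 h and 1.06 to 1.38 CPM untreated. This sum of 12 markers was below the level of Klrk1 alone in every group. T cell markers, 11 in number, summed to 2.24 to 2.81 CPM at 2 h, 2.29 to 2.89 CPM at 6 h and 2.17 to 2.46 CPM untreated. That sum was below Klrk1 at 2 h and in untreated cells and above it at 6 h. Both sums are in CPM and not per length. Cd3g and Trbc2 among the T cell markers had 0 counts in every library. The part of NK or T cells in the Klrk1 result was not tested.

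**Figure D3:**
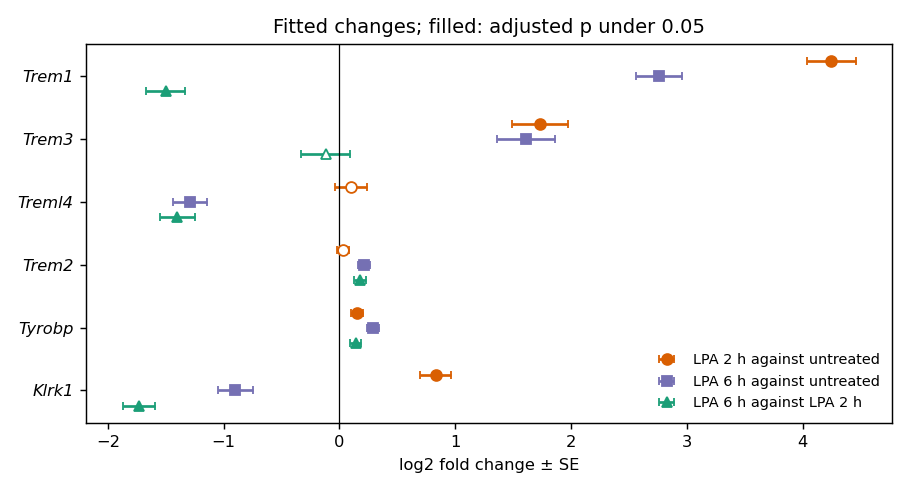
Fitted log2 fold change ± SE of the 6 genes in the 3 comparisons (LPA 2 h against untreated, LPA 6 h against untreated, LPA 6 h against LPA 2 h; filled symbols passed an adjusted p under 0.05). Klrk1 lies to the right of 0 at 2 h (0.83) and to the left at 6 h (-0.90), and Trem1 has the largest rises (4.25 and 2.76).

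Along the Trem cluster, Trem1 and Trem3, which lie first, rose at both times, and Trem2 rose at 6 h. Of the other cluster genes, Treml2, a family member not known to signal through Tyrobp, had 39.0 ± 1.37 CPM at 2 h and 35.8 ± 1.5 CPM at 6 h, against 42.1 ± 2.64 CPM untreated. Its fall at 6 h was -0.23 ± 0.06 on the log2 scale, and the 2 h difference (-0.11 ± 0.06) missed the threshold. Treml1, best known from platelets, had 1.77 ± 0.142 CPM at 2 h and 1.74 ± 0.138 CPM at 6 h, against 2.56 ± 0.0850 CPM untreated, falls of -0.53 ± 0.12 and -0.56 ± 0.13. B430306N03Rik, an annotated gene of the cluster that was added after its values were seen, fell by -0.28 ± 0.05 at 2 h and -0.21 ± 0.05 at 6 h. The flanking genes Nfya and Oard1 did not pass at either time, and the transcription factor gene Foxp4 fell by -0.19 ± 0.06 at 2 h and -0.31 ± 0.06 at 6 h. Treml6 was on the list and matched no row.

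**Figure D4:**
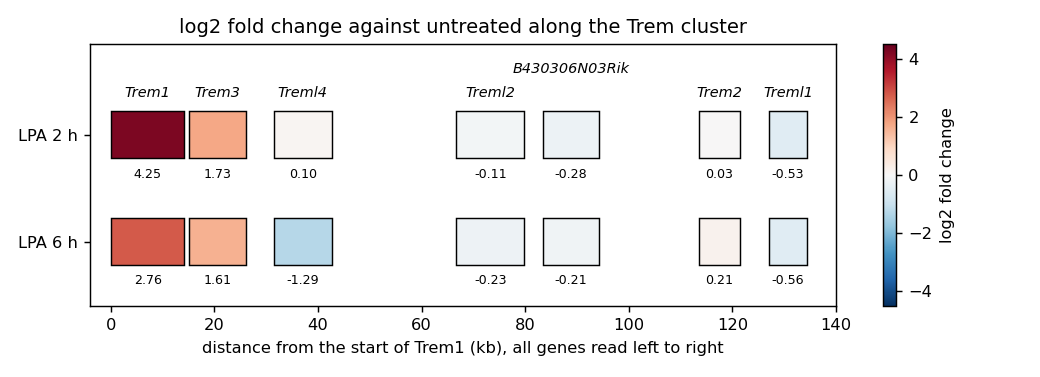
Map of the Trem cluster to scale (x axis: distance in kb from the start of Trem1), with each gene coloured and labelled by its log2 fold change at LPA 2 h (upper row) and LPA 6 h (lower row) against untreated. Trem1 and Trem3 are positive at both times, and the value of Treml4 is 0.10 at 2 h and -1.29 at 6 h.

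Among ITAM adaptors and Hcst, 5 of 9 listed genes were expressed enough to be tested. Besides Tyrobp, the adaptor gene Hcst rose at a low level. It had 6.33 ± 0.125 CPM at 2 h and 5.88 ± 0.0855 CPM at 6 h, against 4.61 ± 0.218 CPM untreated. Its log2 fold change was 0.46 ± 0.08 at 2 h (adjusted p = 0.000614) and 0.35 ± 0.08 at 6 h (adjusted p = 0.00294). Per kb of mean transcript length, Hcst transcripts exceeded those of Klrk1 by 2.99 ± 0.670 times at 2 h, 9.11 ± 0.469 times at 6 h and 3.82 ± 0.197 times untreated. These ratios, too, depend on the length used. With the longest transcript the untreated level of Klrk1 was 1.23 and not 2.74 CPM per kb, and the ratio was not computed with that length. Fcer1g, the Fc receptor gamma chain and the other abundant ITAM adaptor, had 378.6 ± 12.9 CPM at 2 h and 355 ± 12.8 CPM at 6 h, against 354 ± 16.4 CPM untreated. It did not pass at 2 h (0.10 ± 0.05) or 6 h (0.00 ± 0.05). Cd247 and Cd79b, adaptor chains of T and B cell receptors, were under 1 CPM and did not pass, and Cd3d, Cd3e, Cd3g and Cd79a were below the filter.

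Other receptors listed as partners of Tyrobp, some of which can also use Fcer1g, were tested for 12 genes. Of these, 1 rose and 2 fell at 2 h (median -0.09), where 19.3% of all genes were higher and 19.2% lower. At 6 h 1 rose and 8 fell (median -0.34), where 26.4% of all genes were higher and 25.7% lower. The list was not tested against other genes. Clec5a, which encodes the myeloid lectin MDL-1, had 30.5 ± 1.87 CPM at 6 h and 54.5 ± 3.36 CPM untreated, a fall of -0.84 ± 0.08 (adjusted p = 5.34e-06). Pilrb2 (-0.76 ± 0.07) and Cd200r3 (-1.18 ± 0.12), which encode activating paired receptors, fell too, and both had also fallen at 2 h (-0.40 ± 0.06 and -0.35 ± 0.11). The Pilrb, Cd200r and Sirpb1 genes have close copies, so the division of reads among them is uncertain. Csf1r, the receptor of macrophage colony-stimulating factor, which signals together with Tyrobp, rose by 0.16 ± 0.05 at 2 h and 0.22 ± 0.05 at 6 h.

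The kinases and effectors downstream of Tyrobp moved both ways. Of 30 tested, 8 rose and 16 fell at 2 h (median -0.15), and 6 rose and 13 fell at 6 h (median -0.08). The shares of all genes were 19.3% higher and 19.2% lower at 2 h, and 26.4% and 25.7% at 6 h. Syk, the kinase that binds the phosphorylated ITAM, had 558.7 ± 16.9 CPM at 2 h and 636 ± 18.5 CPM at 6 h, against 424 ± 6.79 CPM untreated. It rose by 0.40 ± 0.04 at 2 h (adjusted p = 1.82e-05) and 0.58 ± 0.04 at 6 h (adjusted p = 6.24e-07). Of the Src family kinases, Fgr had 24.4 ± 2.52 CPM at 6 h against 79.4 ± 1.84 CPM untreated, a fall of -1.71 ± 0.10. Fyn rose at 2 h (0.74 ± 0.09) and Src at 6 h (0.45 ± 0.06). The gene of the phosphoinositide 3-kinase catalytic subunit delta, Pik3cd, fell by -0.82 ± 0.05 at 2 h and -0.75 ± 0.05 at 6 h. That of a regulatory subunit of the gamma enzyme, Pik3r5, rose by 0.63 ± 0.07 and 1.07 ± 0.07. At 2 h the guanine nucleotide exchange factor gene Vav1 (-0.79 ± 0.06) and the protein kinase C gene Prkcd (-0.36 ± 0.04) fell.

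Of 15 tested genes that restrain ITAM signals, 1 rose and 8 fell at 2 h (median -0.31), where 19.3% of all genes were higher and 19.2% lower. At 6 h 2 rose and 9 fell (median -0.35), where 26.4% of all genes were higher and 25.7% lower. This list, too, was not tested against other genes. Ptpn6, which encodes the phosphatase SHP-1, had 133 ± 2.96 CPM at 2 h and 119.7 ± 2.87 CPM at 6 h, against 209 ± 6.93 CPM untreated, falls of -0.65 ± 0.04 and -0.80 ± 0.04. The adaptor gene Dok1 fell by -0.66 ± 0.05 at 2 h and Dok2 by -1.44 ± 0.07 at 6 h. The inhibitory receptor genes Sirpa (-0.41 ± 0.04 at 2 h) and Lilrb4a (-0.64 ± 0.06 at 6 h) fell as well. Cd300a, another inhibitory receptor gene, went the other way, with 94.9 ± 17.6 CPM at 2 h and 165 ± 2.32 CPM at 6 h, against 52.4 ± 2.84 CPM untreated. Its log2 fold change was 0.86 ± 0.11 at 2 h and 1.65 ± 0.11 at 6 h (adjusted p = 0.00023 and 2.28e-06). Dok3 rose at 6 h (0.48 ± 0.09).

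**Figure D5:**
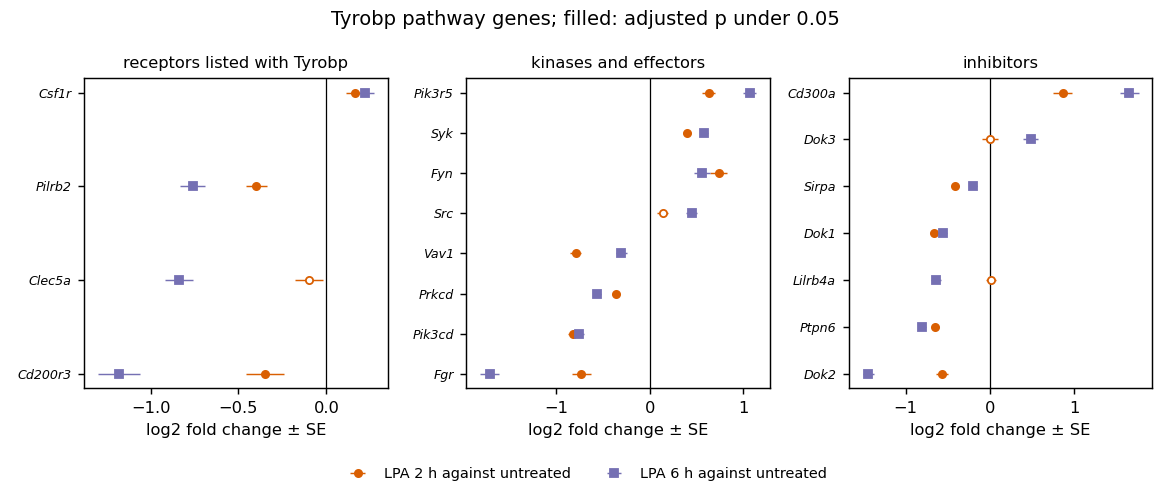
Log2 fold change ± SE at LPA 2 h (circles) and LPA 6 h (squares) against untreated for the genes named above from 3 lists around Tyrobp (filled symbols passed an adjusted p under 0.05; genes ordered by the 6 h value). At 6 h most inhibitors shown lie to the left of 0, with Cd300a on the right (0.86 at 2 h and 1.65 at 6 h).

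Reported ligands of Trem1, Trem2 and NKG2D were tested for 13 of 20 listed genes. Of these, 1 rose and 3 fell at 2 h, where 19.3% of all genes were higher and 19.2% lower. At 6 h 4 rose and 4 fell, where 26.4% of all genes were higher and 25.7% lower. Pglyrp1, a Trem1 ligand, was under 1 CPM, with 0.303 CPM at 2 h, 0.226 CPM at 6 h and 0.375 CPM untreated. Apoe, a Trem2 ligand, had 134.8 ± 9.31 CPM at 6 h and 103 ± 9.29 CPM untreated (0.39 ± 0.09, adjusted p = 0.00602), and Clu did not pass at either time. Ulbp1, which encodes the NKG2D ligand MULT1, had 15.5 ± 1.09 CPM at 2 h and 15.4 ± 1.33 CPM at 6 h, against 11.7 ± 1.72 CPM untreated. It rose by 0.41 ± 0.10 and 0.40 ± 0.10. Raet1e, another NKG2D ligand gene, was near 1 CPM and rose at 6 h, but it has near-identical copies. Genes of proteins also reported to bind Trem1 or Trem2 moved too: the heat shock gene Hspa1a rose at 6 h (2.08 ± 0.31), Hspd1 fell by -0.24 ± 0.06 at 2 h and -0.52 ± 0.06 at 6 h, and Actb fell by -0.49 ± 0.07 and -0.77 ± 0.07. Sema6d, whose product acts through a plexin complex with Trem2 and Tyrobp, fell by -0.45 ± 0.08 and -0.69 ± 0.08.

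Genes tied to Trem1 signalling, cytokines and other inflammatory products that Trem1 is known to amplify, did not move as 1 group. Of 17 tested, 9 rose and 5 fell at 2 h (median 0.44), where 19.3% of all genes were higher and 19.2% lower. At 6 h 4 rose and 7 fell (median -0.27), where 26.4% of all genes were higher and 25.7% lower. The chemokine genes Ccl2, Ccl3 and Ccl4 fell at both times, by -1.92 ± 0.14, -1.81 ± 0.13 and -1.27 ± 0.10 at 2 h. Cd86 (0.78 ± 0.09) and Cd83 (0.61 ± 0.08), co-stimulatory and maturation genes, and Ptgs2 (1.95 ± 0.17) rose at 2 h. Il1b had 55.0 ± 18.4 CPM at 2 h and 17.2 ± 2.23 CPM at 6 h, against 5.95 ± 0.793 CPM untreated, rises of 3.20 ± 0.27 and 1.52 ± 0.27.

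Genes linked to Trem2 in lipid handling and in microglia split as well. Of 24 tested, 5 rose and 4 fell at 2 h (median 0.06), near the 19.3% higher and 19.2% lower among all genes. At 6 h 8 rose and 9 fell (median 0.03), where 26.4% of all genes were higher and 25.7% lower. Plin2, which encodes a lipid droplet coat protein, had 862 ± 345 CPM at 2 h and 2173 ± 70.0 CPM at 6 h, against 295.7 ± 13.4 CPM untreated. It rose by 1.54 ± 0.26 and 2.88 ± 0.27. Abca1, the cholesterol exporter, rose by 0.89 ± 0.08 at 2 h and 0.60 ± 0.08 at 6 h, and the protease gene Ctsl by 0.21 ± 0.05 and 0.50 ± 0.05. Lpl, the lipoprotein lipase gene, had 2287 ± 58.6 CPM at 6 h and 5467 ± 170 CPM untreated, a fall of -1.26 ± 0.07. The fatty acid carrier gene Fabp5 (-0.87 ± 0.08) and the receptor kinase gene Axl (-0.75 ± 0.06) also fell at 6 h, and Csf1 (-0.91 ± 0.09) and Soat1 (-0.53 ± 0.05) fell at 2 h.

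Around Klrk1, 12 of 17 listed NK receptor genes and ligands passed the filter. At 2 h Klrk1 and Hcst rose and Clec2d, a ligand of NK receptors, fell (-0.83 ± 0.06). At 6 h 7 fell, Klrk1 among them, and 2 rose, where 25.7% of all genes were lower and 26.4% higher. Clec2i had 15.8 ± 1.74 CPM at 6 h against 31.9 ± 1.21 CPM untreated (-1.02 ± 0.09), and Clec2d fell by -0.64 ± 0.06. The Ly49-related gene Klra17 rose at 6 h by 0.29 ± 0.11 (adjusted p = 0.0492), but its 6 h and untreated libraries overlapped.

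The genes whose log2 CPM followed each member most closely were sought among 11833 other genes with a mean of at least 1 CPM. Over the 9 libraries, Trem1 was followed most closely by Crem (Pearson r = 0.999), Mxi1 (0.998) and Gpalpp1 (0.998). Crem had 95.9 CPM at 2 h and 47.1 CPM at 6 h, against 14.3 CPM untreated. Klrk1 was followed by Srxn1 (0.995) and Bcl10 (0.994), and Treml4 by Mrpl13 (0.996), Banf1 (0.994) and Eif5a (0.993). For Trem2 the closest were Cd37 (0.992), Hars2 (0.988) and Kif1bp (0.987), for Tyrobp Ift46 (0.986), Acss1 (0.986) and Atox1 (0.984), and for Trem3 Plcxd2 (0.988), Sppl3 (0.987) and Stk38l (0.986). The 9 libraries fall into 3 groups and share their scaling, so these values mostly describe group means. A high r does not mean an equal change: Crem rose by a log2 fold change of 2.75 at 2 h and Gpalpp1 by 1.01, where Trem1 rose by 4.25.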

How the data were processed

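Libraries were made from total RNA with a non-stranded TruSeq mRNA protocol, per the labels' protocols. Estimated counts of reads per gene were deposited by the authors for 9 libraries; the values are whole numbers without scaling to depth. RSEM 1.2.3, DESeq2 and build mm10 were used per the submitters' processing notes, with the aligner and annotation not given in the sources used here. RSEM divides reads among transcripts they match, so counts of close copies depend on that division. Rows were matched by Ensembl transcript identifiers to GENCODE M21 (GRCm38): a single gene was found for 37776 of 38887 rows, which carry 98.46% of all counts.

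Low rows were removed by filterByExpr (min.count 10, min.total.count 15), libraries were scaled with TMM, and all 9 libraries entered 1 fit with group as the only term (edgeR 4.0.16, robust glmQLFit and glmQLFTest; R 4.3.3). Adjusted p is Benjamini-Hochberg over all 14363 rows, with a threshold of 0.05. SE was derived from the F statistic as log2 fold change over root F. CPM was computed with the TMM factors, and each SD covers 3 libraries. The fit was tested on simulated data with known changes.

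No 2 replicates matched within sampling noise (chi-square per degree of freedom 7.1 to 31.1). Same-numbered 6 h and untreated libraries deviated together (r = 0.144 to 0.178, 3 pairs), as did 2 h and untreated ones (0.09 to 0.184). Same-numbered libraries were taken as paired in an alternative fit, on the evidence of the data and not of the labels.

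The members, lists and tests were chosen with earlier results of these data known. Named genes are the members and, per list and comparison with untreated, up to 3 called genes that rose and 3 that fell with the smallest p, all tested adaptors, and the 3 closest genes by Pearson r (log2 CPM, prior count 2). Other named genes (cluster neighbours, Apoe, Clu, Pglyrp1, Raet1e, Adam10, markers) were chosen after their values were seen. Marker lists were also made for B cells, mast cells and basophils, plasmacytoid dendritic cells and osteoclasts. Protein sequences were not used here. A few genes that the rule names are not reported here. Alternatives were other scalings, DESeq2 1.42.0, limma-voom (limma 3.58.1), no filter, the replicate block, only the 6 libraries compared, each library left out, and the longest transcript as length.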

Additional observations from a re-analysis of the deposited data

Results flagged for a closer look

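Levels differed between the 6 h and 2 h LPA groups, by the test in the fit of all genes, for 5 of the 6 members. Of all genes tested, 48.7% were called in the same comparison. The log2 fold change of 6 h over 2 h was -1.50 for Trem1, -1.40 for Treml4 and -1.73 for Klrk1. It was 0.18 for Trem2 and 0.14 for Tyrobp. The Tyrobp call was lost under 5 of 13 alternatives and that of Trem2 under 1. In Klrk1 all 2 h libraries lay above and all 6 h libraries below the untreated ones. Groups of 3 libraries are too small for a test of single outlying libraries.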

How the results depend on the processing

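Trem1, Trem3 and Klrk1 kept their direction and their side of the threshold in every comparison under all 13 alternatives run for each. So did Treml4 at 6 h against untreated and against 2 h, and Tyrobp and Trem2 at 6 h against untreated. At 2 h against untreated, 2 differences that did not pass turned in sign and still did not pass: Treml4 (0.10) was -0.02 without replicate 3 of the 2 h group, and Trem2 (0.03) was -0.01 without replicate 2. With single libraries left out they ranged from -0.02 to 0.21 and from -0.01 to 0.08. The rise of Trem1 at 2 h ran from 4.06 to 4.43 and that of Klrk1 from 0.70 to 0.98. Tyrobp at 2 h was not called with total counts only (0.14, adjusted p = 0.058), and ranged from 0.12 to 0.19 with single libraries left out. Between the times it was not called with only the 6 libraries compared (0.14, adjusted p = 0.0606), and ranged from 0.10 to 0.17 with single libraries left out; Trem2 between the times ranged from 0.13 to 0.22. Members called at 6 h against 2 h numbered 3 to 5 with single libraries left out. With single libraries left out, calls among adaptors ran from 1 to 2 at 2 h and 0 to 1 between the times, among receptors listed with Tyrobp from 1 to 3 at 2 h and 4 to 8 between the times, among NK receptor genes from 3 to 8 between the times, and among shedding genes from 2 to 4 at 2 h. Adaptor calls were 1 at 2 h with total counts only, and 2 with the replicate block and 0 with only the 6 libraries between the times. The causes were not tested. With the longest transcript as length, untreated levels were 1.41 CPM per kb for Trem1, 66.0 for Trem2, 3.98 for Treml4 and 1.23 for Klrk1. Under the replicate block, the genes called numbered 6135 (2 h), 8036 (6 h) and 7588 (6 h against 2 h), and no member's call changed. At 2 h against untreated, same-numbered libraries correlated at 0.09 to 0.184, above all pairs with different numbers (-0.148 to -0.031). Between the times they correlated at 0.035 to 0.128, which overlapped pairs with different numbers (-0.159 to 0.073). Deviations were taken from each group's mean and sum to 0 within a group. Pairs with different numbers are therefore tied to the same-numbered ones and are no independent reference for them. Each member had 1 row, so summing rows could not change a value. Trem3, with 11 to 77 counts per library, limits what can be said of its differences.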

Other observations

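Genes of the proteases that shed Trem receptors, and of the gamma-secretase that cuts the remaining stub, were also measured. Of 14 tested, 2 rose and 2 fell at 2 h, and 3 rose and 4 fell at 6 h. These counts were near the shares of all genes, 19.3% higher and 19.2% lower at 2 h, and 26.4% and 25.7% at 6 h. Adam17, a main sheddase, had 256 ± 27.9 CPM at 2 h and 177 ± 7.21 CPM at 6 h, against 298.6 ± 2.35 CPM untreated, and fell by -0.22 ± 0.07 and -0.75 ± 0.07 on the log2 scale. Adam10, the other, did not pass at either time (-0.04 ± 0.05 and -0.07 ± 0.05). The matrix metalloproteinase genes Mmp14 (-0.61 ± 0.04) and Mmp9 (-1.10 ± 0.19) fell at 6 h. The gamma-secretase genes Psen2 (0.39 ± 0.06) and Psenen (0.45 ± 0.09) rose at 6 h.

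Of the remaining marker lists, B cell markers summed to 6.67 to 11.2 CPM at 2 h, 1.91 to 2.18 CPM at 6 h and 10.2 to 12.7 CPM untreated, most of it Ighm. Mast cell and basophil markers summed to 23.0 to 23.9 CPM at 2 h, 22.1 to 23.9 CPM at 6 h and 19.2 to 24.4 CPM untreated. Of these 8 markers all but Kit and Gata2 averaged under 1 CPM, and Fcer1a and Cma1 had 0 counts in every library. Plasmacytoid dendritic cell markers summed to 136.8 to 173.7 CPM at 2 h, 106.3 to 112.4 CPM at 6 h and 130.6 to 135 CPM untreated. Runx2 was the highest of these 8, and Siglech, Ly6d and Cox6a2 averaged under 1 CPM. Osteoclast markers summed to 709.9 to 779.7 CPM at 2 h, 753 to 814.5 CPM at 6 h and 620.4 to 739 CPM untreated. Dcstamp was the highest of these 8, and Calcr and Oscar averaged under 1 CPM. Macrophage markers summed to 4192 to 4292 CPM at 2 h, 4163 to 4376 CPM at 6 h and 3939 to 3987 CPM untreated. Without Csf1r, the highest of them, the sums were 1670 to 1810 CPM at 2 h, 1640 to 1710 CPM at 6 h and 1710 to 1730 CPM untreated. At 6 h 6 of the 11 macrophage markers tested fell (Adgre1, Fcgr1, Mrc1, C1qa, C1qb and C1qc) and 3 rose (Mertk, Csf1r and Cd68). Among all genes 25.7% were lower and 26.4% higher at that time.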
